A study of Mus musculus with 4 samples.

Results

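The RNAs described here are 10 long noncoding RNAs (lncRNAs) of mouse microglia, the resident macrophages of the brain. They were taken by symbol in 4 roles. Malat1 and Neat1 are nuclear architectural RNAs, Gas5, Snhg1 and Snhg12 are hosts of small nucleolar RNAs (snoRNAs), Mir155hg, Mir22hg and Dleu2 are microRNA hosts, and Kcnq1ot1 and Meg3 are imprinted RNAs. All 10 were among the 56832 listed genes. RNA was sequenced from microglia grown in primary glial culture from C57BL/6 mice labelled female, detached with trypsin and sorted into TRIzol LS. The 4 libraries form 1 group with no treatment named, and no age, sort antibody or number of animals is stated. The wider design also names cultured blood progenitors and progenitors grown on glia, which were not analysed here, so the comparisons below are between genes and between replicate libraries. Nothing in the labels says that the replicates came from separate cultures, so the spread may be technical.

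LncRNAs act as RNA rather than through a protein. Malat1 gathers at nuclear speckles, where splicing factors are stored, and the long form of Neat1 is the scaffold of paraspeckles. In snoRNA hosts the introns carry the functional small RNAs, and the spliced host is often removed by nonsense-mediated decay. MicroRNA hosts are the primary transcripts from which Drosha cuts microRNA hairpins, and imprinted lncRNAs are made from only the maternal or the paternal chromosome. In macrophages the microRNA of Mir155hg is known as an inflammatory inducer and a target of NF-kB and AP-1.

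Libraries held 23212183 to 28469813 gene counts. All 8 microglial markers were at 1 CPM (counts scaled to 1000000 gene counts per library) or more in every library, and their summed level was 20246 to 20978 CPM. Of the 8, P2ry12 passed the test of differences between libraries described below. Markers of other cells were lower, at 141 to 230 CPM for 8 astrocyte genes, 142 to 164 for 8 oligodendrocyte genes, 81.8 to 95.9 for 6 endothelial genes, 76.3 to 107 for 8 mural and fibroblast genes and 14.5 to 19.9 for 8 neuronal genes, with Mog, Snap25 and Tek at 0 counts. Against the label of female cells, 4 Y-linked genes had at least 233 counts each in every library beside Xist. Replicate 1 stood apart in immediate-early genes, which respond within minutes to stimulation, as described with Mir22hg.

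The 3′ ends of the nuclear RNAs are shown first because Malat1 and the long form of Neat1 are not polyadenylated in the usual way, whereas the short form of Neat1 is. In GENCODE M21 on GRCm38 both lie on the minus strand of chromosome 19, and the longest transcript of each spans its gene without an intron, Malat1 at chr19:5795690-5802672 and Neat1 at chr19:5824708-5845478. RNase P is known to cut Malat1 after an A-rich tract, which folds with U-rich stretches into a triple helix that protects the end. Below are 120 bases up to the end of that tract, with the tract and each match to TTNCTTTT in capitals, from the GENCODE M21 transcripts (chr19:5795982-5796101 for Malat1 and chr19:5824708-5824827 for Neat1).
Malat1: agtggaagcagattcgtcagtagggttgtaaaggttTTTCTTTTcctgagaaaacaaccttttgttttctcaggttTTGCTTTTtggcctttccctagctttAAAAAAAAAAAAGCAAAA
Neat1: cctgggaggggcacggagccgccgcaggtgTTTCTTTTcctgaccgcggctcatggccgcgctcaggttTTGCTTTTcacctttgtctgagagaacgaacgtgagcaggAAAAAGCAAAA
Each stretch held 2 U-rich matches before its tract, which was 18 bases in Malat1 and 11 in Neat1. The letters AAAAAGCAAAA occurred in the last 320 bases of 0.0985% of 129970 annotated transcripts of at least that length, counting the sense strand only. The annotated Malat1 transcript ran on for 292 bases after the tract, whereas that of Neat1 ended there.

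The microRNAs inside the microRNA hosts are shown next, with the seed (bases 2 to 8) in capitals. The sequences are from RefSeq on GRCm38.p6.
miR-155-5p: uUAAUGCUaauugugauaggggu
miR-22-3p: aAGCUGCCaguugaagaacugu
miR-15a-5p: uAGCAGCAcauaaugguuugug
miR-16-5p: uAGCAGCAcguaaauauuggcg
The last pair, both from Dleu2, share the seed AGCAGCA, and the other seeds differ from it and from each other. In GENCODE M21 the hairpins of miR-155 and miR-22 lie in exons of their hosts, so cutting them out breaks the spliced RNA. Those of miR-15a and miR-16-1 lie in an intron of Dleu2.

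Transcription starts of the 3 snoRNA hosts are shown because such hosts usually belong to the terminal oligopyrimidine class, whose RNA begins with a run of C and T bases. Each line runs from 30 bases before the annotated start to 50 after it, with the run of C and T over the first transcribed base in capitals (RefSeq, GRCm38.p6, plus strand, chr1:161035136-161035215 for the downstream of 2 Gas5 starts, chr19:8723457-8723536 for Snhg1 and chr4:132308648-132308727 for Snhg12).
Gas5: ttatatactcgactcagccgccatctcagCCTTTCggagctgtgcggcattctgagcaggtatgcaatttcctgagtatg
Snhg1: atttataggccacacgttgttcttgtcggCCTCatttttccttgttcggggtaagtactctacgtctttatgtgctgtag
Snhg12: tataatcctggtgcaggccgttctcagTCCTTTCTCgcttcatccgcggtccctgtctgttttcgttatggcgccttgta
The run was 6 bases long in Gas5, 4 in Snhg1 and 9 in Snhg12. A run of at least 5 lay over the first base of 10.1% of 32851 promoter windows, and the upstream Gas5 start had none. Windows of 300 bases were found for 9 of the 10 RNAs, 11 windows in all, Neat1 being the one without. On either strand, the AP-1 letters TGANTCA were in none of the 11 and in 7.81% of all windows. The NF-kB motif was in none of the 11 and in 0.411% of all. For Mir155hg the window lay at a RefSeq start inside the gene as GENCODE M21 places it (chr16:84703167-84715245, plus strand). The GENCODE start upstream was not scanned, so the absence of AP-1 and NF-kB letters does not cover it. The CRE letters TGACGTCA were in the downstream Gas5 window and the upstream Meg3 window, against 1.79% of all. The PU.1 letters GAGGAAGT were in the Dleu2 window, against 3.2% of all, and a CArG box was in the downstream Meg3 window, against 1.63%.

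The set spanned nearly 4 orders of magnitude, and the word abundant suited only part of it. Malat1 ranked 1 by mean CPM among 9488 annotated lncRNAs, Neat1 ranked 5, Gas5 12, Dleu2 28 and Mir22hg 38. Snhg12 ranked 43, Snhg1 47 and Meg3 65. Kcnq1ot1 ranked 174 and Mir155hg 1579. CPM is not corrected for length, so these ranks favour long RNAs, and ranks per unit of length are given further below. Together the 10 made up 18.0% ± 0.380 (SD, n = 4) of lncRNA counts, and lncRNAs made up 0.386% ± 0.0135 of all gene counts. Of the 9488, 303 were at 1 CPM or more in every library, among them 9 of the 10.

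**Figure D1:**
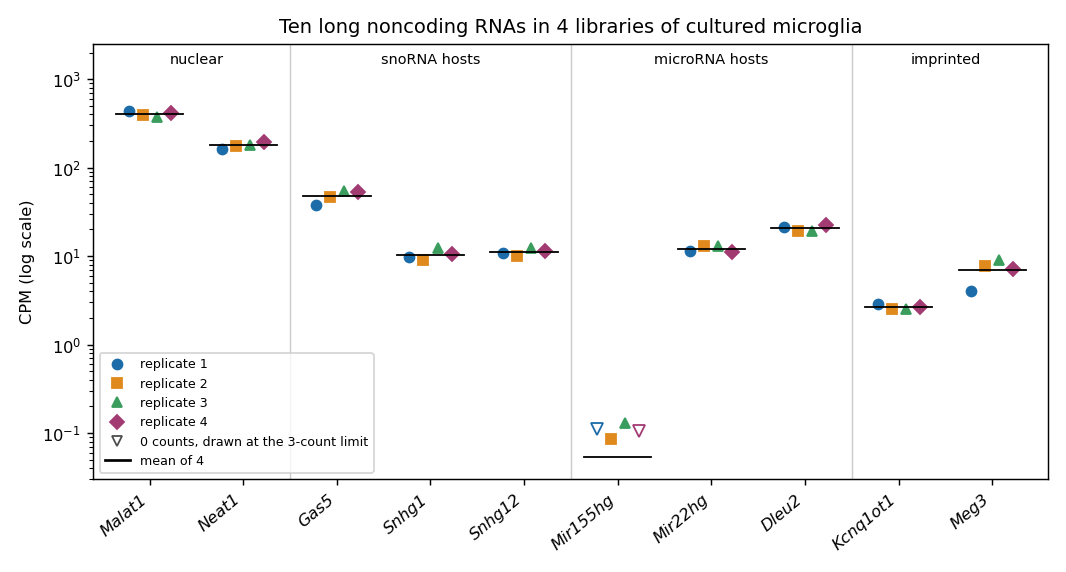
Each point is the level of 1 RNA in 1 library in CPM, on a log axis, and the black bar is the mean of 4 libraries. Open triangles mark 0 counts, drawn at the limit that 3 counts would give. Malat1 lies near 405 CPM, Mir155hg at or under 0.129, and replicate 1 lies lowest for Meg3.

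**Figure D2:**
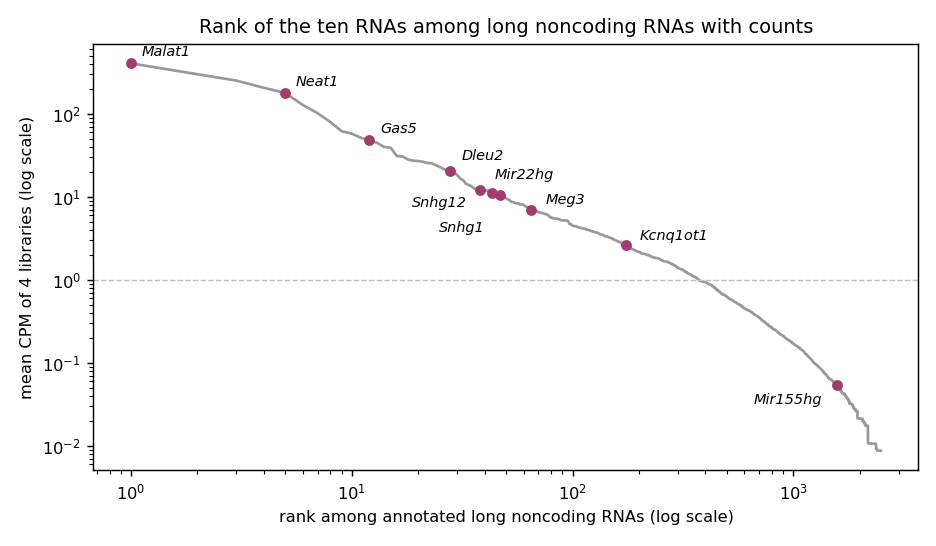
Mean CPM over 4 libraries (log axis) against rank (log axis) for all annotated lncRNAs with counts, with the 10 RNAs marked and a dashed line at 1 CPM. Malat1 is at rank 1, Kcnq1ot1 at 174 and Mir155hg far down the curve at 1579.

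Levels were then tested for differences between libraries. Of the 10, 9 passed the abundance filter, and 0 of these 9 differed between libraries by more than genes of like abundance (edgeR deviance test, Benjamini-Hochberg adjusted p under 0.05), against 1.11% of the 12879 genes tested. At an unadjusted p under 0.05 there were 2, Meg3 and Gas5, against 6.79% of all tested. With the fitted dispersion trend of DESeq2 the adjusted count was 0, against 1% of all. With no abundance filter it was again 0, against 0.695% of all. With a common dispersion it was 1, Meg3, against 4.13% of all.

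Malat1 was the highest RNA of the set. Its levels were 438, 397, 372 and 415 CPM in replicates 1 to 4, from 8627 to 11844 counts, with a mean of 405 ± 28.2 (SD, n = 4). Replicate 1 was highest and replicate 3 lowest, a ratio of 1.18, and counting alone would give a coefficient of variation (CV) of 0.988% where 6.95% was seen. Genes of like abundance had a CV beyond counting of 6.36%, and Malat1 did not pass (edgeR adjusted p = 0.99991).

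Neat1 levels were 162, 178, 179 and 194 CPM, with a mean of 178 ± 13.0. The order of the libraries differed from that of Malat1: replicate 1 was lowest and replicate 4 highest, and the test did not pass (edgeR adjusted p = 0.99991). The ratio of Malat1 to Neat1 was 2.29 ± 0.286 in CPM. Per unit of exon length, in TPM (counts divided by merged exon length, then scaled to 1000000 per library), it was 6.80 ± 0.849, from 6.16 in replicate 3 to 8.04 in replicate 1. Because the short and long forms of Neat1 share their 5′ part, counts per gene cannot tell the paraspeckle scaffold from the short form. The TPM ratio rests on the 20771 bases of the long form.

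Paraspeckle and nuclear speckle protein genes were well expressed, with CVs of at most 7.62% (Rbm14). All 10 paraspeckle genes were at 1 CPM or more in every library, with a list median of 55.4 TPM ± 1.93, and 0 of 10 passed the test between libraries. Hnrnpk (272 TPM ± 12.7) and the core paraspeckle protein gene Nono (205 ± 10.8) were highest. All 10 nuclear speckle genes were also detected, with a median of 78.2 TPM ± 4.13, led by the splicing factor genes Srsf5 (229 ± 10.2) and Srsf2 (208 ± 3.51). As in the paraspeckle list 0 of 10 passed, against 1.11% of all tested genes. The median of all tested genes was 17.9 TPM.

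Gas5 was the highest of the 3 snoRNA hosts. Its levels were 38.3, 46.1, 53.9 and 53.0 CPM in replicates 1 to 4, with a mean of 47.8 ± 7.26. Replicate 1 was lowest, at 1034 counts, and the mean of the others was 1.33 times its level. The spread gave an unadjusted p of 0.031 that did not survive adjustment (edgeR adjusted p = 0.60, and 0.44 to 0.99991 over the alternatives). The CV was 15.2%, and 8.40% without replicate 1. Zbtb37, a protein-coding gene on the opposite strand that overlaps Gas5, had 473, 402, 322 and 564 counts, where Gas5 had 1034, 1080, 1251 and 1510. These counts are not scaled for depth, and both were highest in replicate 4, the deepest library. By CPM Gas5 was highest in replicate 3, the library with the fewest gene counts, where the Zbtb37 count was lowest. Since the strand setting is not given, reads of the overlap may have been lost or shared.

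Snhg1 levels were 9.85, 8.96, 12.4 and 10.5 CPM, with a mean of 10.4 ± 1.44. Snhg12, the other low host, was at 10.8, 10.1, 12.5 and 11.5 CPM, with a mean of 11.2 ± 1.02. Both were lowest in replicate 2 and highest in replicate 3, by a ratio of 1.38 for Snhg1 and 1.24 for Snhg12, and neither passed (edgeR adjusted p = 0.99991 for each). Counting alone would give CVs of 6.18% and 5.94%. All 3 hosts overlap annotated snoRNAs, and of the 21 such symbols 20 were listed, all with 0 counts in every library. Of the merged exon bases of these hosts, 17.8% to 20.9% lie under other annotated genes, where reads could have been called ambiguous.

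Other snoRNA hosts were listed in 17 of 18 cases and 12 were at 1 CPM or more in every library. The list median was 11.5 TPM ± 3.12. Snhg8, at 83.2 TPM ± 16.1, and Epb41l4aos, at 44.4 ± 14.1, were highest, and Snhg9 had 0 counts. Of the 14 tested 0 passed (edgeR, adjusted p under 0.05), against 1.11% of all tested genes. At an unadjusted p under 0.05 there were 3, against 6.79%. Lowest in replicate 1 were 12 of the 14, as were 35.3% of all tested genes.

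Proteins that build snoRNPs, the particles of snoRNAs, were detected for 10 of 10 genes with a median of 49.2 TPM ± 3.08. The box H/ACA protein genes Nop10 (129 TPM ± 13.0) and Nhp2 (79.9 ± 12.3) were highest. In that list 0 of 10 passed and 2 had an unadjusted p under 0.05, against 1.11% and 6.79% of all tested genes. Nonsense-mediated decay factors were detected for 10 of 10 genes with a median of 30.6 TPM ± 1.34. The helicase gene Upf1 (92.5 ± 3.70) and Smg5 (44.3 ± 2.02) were highest. Of the 10 decay genes 0 passed and 1 had an unadjusted p under 0.05, beside the same shares of all tested genes.

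Mir155hg was at the limit of detection. It had 0, 2, 3 and 0 counts in replicates 1 to 4, 5 counts in all, and a library with 0 counts allows up to 3, which is 0.105 to 0.111 CPM in those libraries. That limit covers counting error only. Replicate 1, which had 0 counts, was the library with the highest summed level of 15 inflammatory genes, 628 CPM against 382 to 473 in the others. In that list 4 of 12 tested genes passed, Tnf, Ccl2, Ccl3 and Ccl7, against 1.11% of all tested genes. All 4 were highest in replicate 1, as were 24.0% of all tested genes, while Il6 and Nos2 had 0 counts everywhere. Mir155hg did not pass the abundance filter and was not tested in the main fit.

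Mir22hg was steady. Its levels were 11.6, 13.1, 13.1 and 11.03 CPM, with a mean of 12.2 ± 1.05 and a CV of 8.65% where counting alone would give 5.69%. Replicates 2 and 3 were higher than 1 and 4, by a ratio of 1.19 between the highest and the lowest, and the test did not pass (edgeR adjusted p = 0.99991). Immediate-early genes did not share that order. Their 16 genes summed to 2251 CPM in replicate 1 and to 1327 to 1631 in the others. Of the 16, 11 passed, against 1.11% of all tested genes. All 11 were highest in replicate 1, as were 24.0% of all tested genes. Mir22hg deviated from its own mean there by -0.07 on the log2 scale, against a list median of 0.55.

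Dleu2 was the highest of these 3 microRNA hosts by CPM. Its levels were 21.2, 19.2, 19.3 and 22.7 CPM, with a mean of 20.6 ± 1.68. Replicates 1 and 4 were higher than 2 and 3, by a ratio of 1.18 between the highest and the lowest, and the test did not pass (edgeR adjusted p = 0.99991). The gene is spread over chr14:61602839-61682373 on the minus strand of GRCm38 in 15 annotated transcripts, and its merged exons are 11334 bases against 4098 in its longest transcript. Trim13, a ubiquitin ligase gene on the opposite strand, overlaps it and had 125, 86, 67 and 94 counts.

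The 6 microRNA genes that overlap the 10 RNAs had 0 counts in every library, and the reason was not tested. The levels above are those of the hosts only. Of 12 other microRNA hosts, 10 were listed and 4 were at 1 CPM or more in every library, and 0 of 5 tested passed (edgeR, with 0 at an unadjusted p under 0.05). Mir142hg, which carries a microRNA of blood cells, was far above the rest at 304 TPM ± 36.1 (24.1 CPM ± 2.82), followed by Mir17hg at 1.82 TPM ± 0.759. Mir124a-1hg and Dnm3os had 0 counts. Genes for microRNA processing and Argonaute proteins were all detected, 10 of 10, with a median of 23.3 TPM ± 0.832. The Argonaute genes Ago1 (85.3 TPM ± 3.46) and Ago2 (40.7 ± 2.45) were highest, and 0 of 10 passed, with 0 at an unadjusted p under 0.05.

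Kcnq1ot1, the antisense RNA that silences genes of its imprinted domain from the paternal chromosome, was low and even. Its levels were 2.85, 2.52, 2.50 and 2.67 CPM, from 58 to 77 counts, with a mean of 2.63 ± 0.163. The CV of 6.20% was under the 12.3% that counting alone would give, so these libraries were not distinguishable, and the test did not pass (edgeR adjusted p = 0.99991). Its annotated transcript is 93092 bases long (chr7:143203458-143296549, minus strand, GRCm38), which places it at 0.0960 TPM ± 0.00677. Kcnq1, the channel gene it runs against, had 2 counts in all libraries together against 270 for Kcnq1ot1.

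Meg3, the maternally expressed RNA of the Dlk1-Dio3 domain, varied most among the 9 tested RNAs. Its levels were 4.07, 7.64, 9.13 and 7.24 CPM in replicates 1 to 4, from 110, 179, 212 and 206 counts, with a mean of 7.02 ± 2.13. Replicate 1 was lowest, the mean of the others was 1.97 times its level, and the highest library was 2.24 times the lowest. The CV was 30.3%, where counting alone would give 7.71% and genes of like abundance had 15.7% beyond counting. The unadjusted p was 0.017 and did not survive adjustment (edgeR adjusted p = 0.44, and 0.015 to 0.99991 over the alternatives). The lower bound is from the fit with a common dispersion. Without replicate 1 the mean was 8.002 CPM, the CV was 12.5% and the edgeR adjusted p was 0.99991.

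Astrocyte markers had their lowest level in the same library as Meg3. The 8 genes, 7 of them at 1 CPM or more in every library and none at 0 throughout, summed to 141 CPM in replicate 1 and to 225, 230 and 193 in replicates 2 to 4. Of the 7 tested, all 7 were lowest in replicate 1, against 35.3% of all tested genes. Gfap and Slc1a3 passed, against 1.11% of all tested. The neuronal list, with Snap25 at 0 counts and 3 of 8 genes at 1 CPM, summed to 14.5 CPM in replicate 1 and 17.2 to 19.9 in the others, and 0 of 3 tested passed. Mural and fibroblast genes, 6 of 8 at 1 CPM, summed to 76.3, 97.3, 107 and 76.9 CPM, and Acta2 passed. That sum was mostly Acta2 and Tagln, genes of contractile cells, which were lowest in replicate 1 and highest in replicate 3. The fibroblast genes Col1a1 (6.29, 7.04, 2.33 and 4.18 CPM), Col1a2 (7.14, 7.89, 3.70 and 4.95) and Dcn (3.33, 3.46, 1.21 and 2.95) were instead lowest in replicate 3, where Meg3 was highest, and did not pass after adjustment. Endothelial genes, 2 of 6 at 1 CPM with Tek at 0 counts, summed to 81.8 CPM in replicate 1 and 90.0 to 95.9 in the others. That sum was mostly Flt1, and Kdr was at 11.7, 17.1, 22.0 and 16.2 CPM. Oligodendrocyte genes, 4 of 8 at 1 CPM with Mog at 0 counts, summed to 150.3, 164, 158 and 142 CPM, lowest in replicate 4. Most of this was Mbp, and Olig1 was at 6.70, 9.51, 11.8 and 8.78 CPM. All 3 tested endothelial and all 3 tested neuronal genes were lowest in replicate 1, against 35.3% of all tested genes. So were 3 of 6 tested mural and fibroblast genes (Acta2, Tagln and Pdgfrb) and 1 of 4 tested oligodendrocyte genes (Olig1). The part of other cell types in the level of Meg3 was not tested, and in sorted bulk RNA fewer cells of a type and less RNA per cell cannot be told apart.

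**Figure D3:**
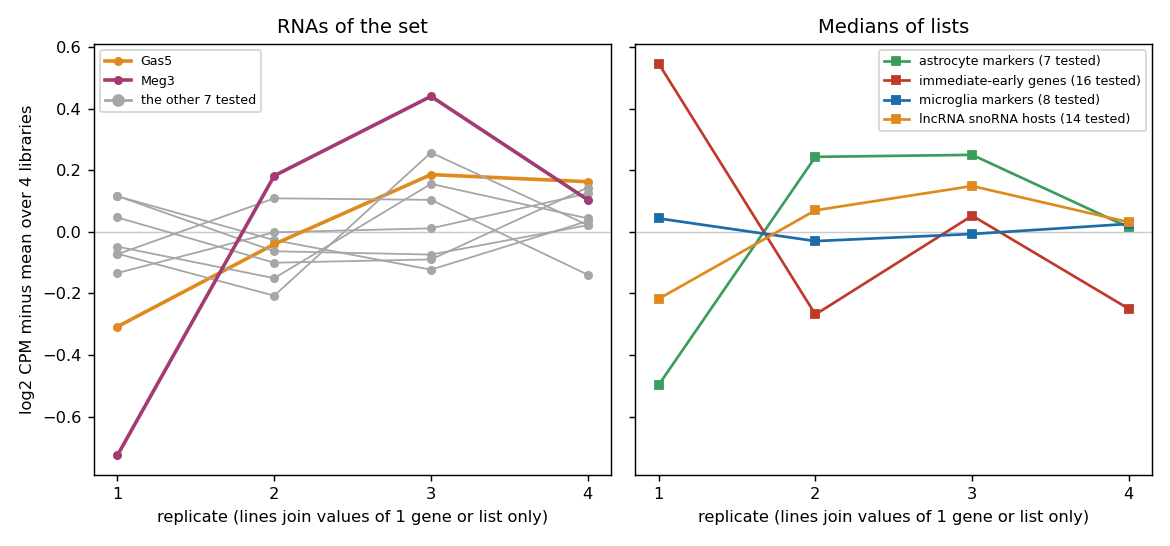
On the left, log2 CPM minus the mean over 4 libraries for the 9 tested RNAs, and on the right the median of the same measure over the tested genes of 4 lists, both by replicate. In replicate 1 Meg3 lies at -0.73, Gas5 at -0.31, the astrocyte median at -0.50 and the immediate-early median at 0.55, while the microglial median lies at 0.04.

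Other imprinted lncRNAs were Peg13, at 28.7 TPM ± 0.997, and H19, at 5.74 ± 0.565. Of the 8 in that list 7 had entries, 3 were at 1 CPM or more in every library, and 0 of 3 tested passed (edgeR, with 0 at an unadjusted p under 0.05). Rian, named after its values were seen, lies in the same imprinted domain as Meg3 and was at 5.03, 4.22, 6.25 and 5.62 CPM, so its lowest library was replicate 2. Dlk1, a protein-coding gene of that domain also named after its values were seen, was at 0.592, 1.41, 1.21 and 1.65 CPM, lowest in replicate 1 as Meg3 was, and did not pass (edgeR adjusted p = 0.99991). The protein-coding neighbours of Kcnq1ot1 and Meg3 were mostly absent or low, with 2 of 10 at 1 CPM or more in every library. These were Cd81, a tetraspanin gene, at 754 TPM ± 25.8, and Tssc4, at 36.6 ± 3.71. Phlda2 and Rtl1 had 0 counts. Of 5 tested 0 passed and 1 had an unadjusted p under 0.05, against 1.11% and 6.79% of all tested genes. Of these 5, 4 were lowest in replicate 1, against 35.3% of all tested genes.

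Between genes, levels per unit of length gave another order. By mean TPM it was Malat1 at 197 ± 15.2, Gas5 at 43.1 ± 6.21, Neat1 at 29.1 ± 1.88, Mir22hg at 21.5 ± 1.81, Snhg12 at 15.8 ± 1.39, Snhg1 at 11.9 ± 1.62, Dleu2 at 6.16 ± 0.511, Meg3 at 1.31 ± 0.391, Mir155hg at 0.126 ± 0.152 and Kcnq1ot1. Gas5 thus stood above Neat1 per length and below it by CPM. Merged exons and the longest transcript of Neat1 are both 20771 bases, the length of its long form. Its place with the length of the short form was not tried. Among the 9160 lncRNAs with a length, Malat1 ranked 5 by mean TPM, Gas5 13, Neat1 22, Mir22hg 30 and Snhg12 45. Snhg1 ranked 68, Dleu2 118, Meg3 434, Mir155hg 1493 and Kcnq1ot1 1621. Above Malat1 were Gm10076 (901 TPM), Mir142hg (304), AU020206 (267) and 2410006H16Rik (228). By CPM Malat1 was above all of these, with Mir142hg at 24.1 CPM against 405. In 8 of the 9 pairs of neighbours in this order the difference of log2(TPM + 1) had 1 sign in 4 of 4 libraries and was larger than its SD. It ranged there from 0.39 ± 0.0624 (Snhg12 above Snhg1) to 2.18 ± 0.306 (Malat1 above Gas5). The exact two-sided sign-flip permutation test gave p = 0.13 for each of the 8, the smallest that 4 libraries allow, and 0.14 after Benjamini-Hochberg adjustment over the 9 pairs. The lowest pair, Mir155hg and Kcnq1ot1, differed by 0.03 ± 0.201 and could not be ordered (exact permutation p = 0.88). With the longest transcript as the length, Dleu2 was at 12.9 TPM and stood above Snhg1 at 9.80, and Snhg12, at 18.7, stood above Mir22hg, at 17.9.

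**Figure D4:**
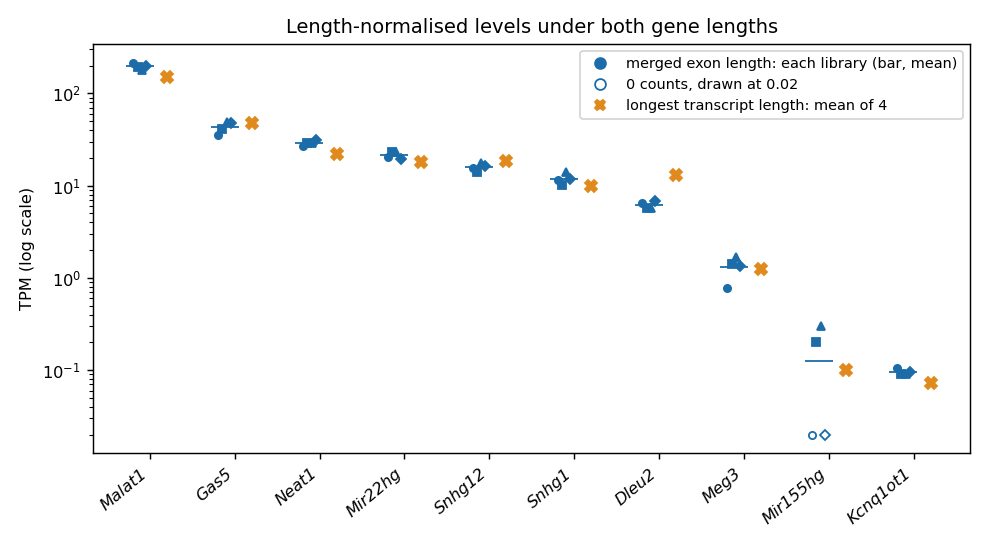
Levels in TPM on a log axis, with each library as a blue point and the mean as a bar under merged exon lengths, and the mean under longest transcript lengths as an orange cross. The span runs from Malat1 at 197 TPM to Kcnq1ot1 at 0.0960, and Dleu2 moves most between the lengths, from 6.16 to 12.9.

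By the likeness rule, the genes nearest to the RNAs of largest spread were sought by the root mean square difference of centred log2 CPM over the 4 libraries, among 8554 genes at 10 CPM or more for Meg3 and 8553 for Gas5. For Meg3 they were Coprs (0.05), the collagen gene Col5a2 (0.06) and Afap1l2 (0.06). For Gas5 they were Zfp623, Pdzd11 and Zc3hc1, at 0.02 each. With 4 libraries and this many candidates some genes always lie close, so the distances are a description.

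Of other lncRNAs from 4 related lists, 47 of 51 symbols were listed and 28 were at 1 CPM or more in every library. In edgeR 0 of 32 tested passed and 6 had an unadjusted p under 0.05, against 1.11% and 6.79% of all tested genes. The highest of these other lncRNAs by CPM was Xist, which coats the inactive X chromosome, at 300.2 CPM ± 42.9 and 56.7 TPM ± 8.32. Tug1 was at 27.8 TPM ± 1.49. Norad, which binds Pumilio proteins, had no matched length and was at 206 CPM ± 9.50, between Malat1 and Neat1. Of 485 lncRNAs tested, 3 passed and 27 had an unadjusted p under 0.05 in edgeR, beside the same shares of all tested genes. The median CV of the 485 between libraries was 20.6%, at a median level of 1.82 CPM, against 8.98% at 23.5 CPM for all tested genes. Malat1, Neat1, Mir22hg, Dleu2 and Kcnq1ot1 had CVs under 8.98%, Snhg12 was just above at 9.06%, and Meg3 was the only one of the 9 above 20.6%.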

How the data were processed

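Each library has 1 deposited file of raw read counts by gene symbol. The submitters' processing notes name HTSeq 0.11.2, STAR 2.7.10a and SAMtools 1.16.1, with mm39 (GRCm39) as the build. Neither the annotation release nor how strand and overlaps were handled is stated there. The 5 summary lines held 11.8% ± 0.159 (SD, n = 4) of reads and were left out. CPM used summed gene counts. TPM used merged exon lengths of GENCODE M21 (GRCm38), matched by symbol for 89.1% of symbols and 98.8% of counts, so coordinates printed are GRCm38 and not those of the counting. LncRNAs were symbols of a GENCODE lncRNA type, or for 328 unmatched symbols a RefSeq one, after removing 77 also listed as protein-coding.

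Spread between libraries was tested in edgeR 4.0.16 (R 4.3.3): 1 mean per gene, TMM, filterByExpr, trended dispersion, deviance against chi-square, Benjamini-Hochberg adjustment over all genes tested, tested first on simulated data. Alternatives were DESeq2 1.42.0 scaling and trend, no scaling, no filter, a common dispersion, other lengths and pseudocounts, and leaving out each library. Members, lists and rules were chosen with earlier results of these data known. Named genes were the 10 RNAs, the 2 highest of each list by TPM, genes past the test, markers at 0, genes overlapping the 10, and the 3 nearest in pattern to the 2 most variable.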

Additional observations from a re-analysis of the deposited data

Results flagged for a closer look

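Among 60 genes checked, the 10 lncRNAs included, 6 had 1 library set apart from the other 3 by more than the limit of Dixon's test for 4 values, and none of the 6 was among the 10. The 60 included genes that had passed the test between libraries, Egr1, Egr2 and Ccl7 among them, so no chance rate applies. Of the 6, 5 concerned replicate 1. For the snoRNA host Snhg8 the level was 14.7 CPM in replicate 1, while replicates 2 to 4 had 23.5, 23.5 and 22.1. Nop10, a protein of snoRNA particles, was at 35.2 CPM in replicate 1 against 44.1, 44.4 and 44.7. The level of the splicing factor gene Srsf2 was 187 CPM in replicate 4, the other libraries lying between 179.7 and 180.0, a gap that is large only beside the closeness of the others. The immediate-early genes Egr1 and Egr2 were at 231 and 20.1 CPM in replicate 1, against at most 72.4 and 6.94, and the chemokine gene Ccl7 at 6.59 against at most 1.68.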

How the results depend on the processing

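The count of all genes whose libraries differed was 143, and 532 with a common dispersion, where 1 of the 10 lncRNAs (Meg3, edgeR adjusted p = 0.015) passed; the common CV beyond counting was 10.3%, against 15.7% for genes of its level. Leaving out 1 library gave 47 (without replicate 1) to 118 (without replicate 2), with 52 without replicate 3, and 0 of the 10 each time. In the order by TPM, Mir155hg minus Kcnq1ot1 turned to -0.068 with a pseudocount of 0.1 and lay between -0.046 (without replicate 3) and 0.088 (without replicate 1) with 1 library left out. With longest transcripts Mir22hg minus Snhg12 turned to -0.064 and Snhg1 minus Dleu2 to -0.37. Imprinted neighbours detected rose from 2 to 5 at 10 counts in every library. Of 235 alternative values, 217 kept their direction and their side of the threshold or moved by less than the spread. No paired analysis was possible because there is 1 group. Depth limits Mir155hg most. Counting alone would give a CV of 12.3% for Kcnq1ot1, 7.71% for Meg3, 6.18% for Snhg1 and 5.94% for Snhg12.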

Other observations

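Some structured noncoding RNAs were near the floor, with counts that varied between libraries. Of those named here only Rn7sk was tested, and it did not pass (edgeR adjusted p = 0.21). These genes were named after their values were seen. Rn7sk, the RNA that holds the elongation factor P-TEFb, was at 0.518, 1.07, 1.34 and 2.49 CPM in replicates 1 to 4. Rmrp, the RNA of RNase MRP, had 0, 2, 9 and 42 counts, and Rpph1, the RNA of the RNase P that cuts Malat1, had 0, 7, 25 and 20. Replicate 1 was lowest for all 3. The telomerase RNA Terc had 1 count in all libraries together. Mirg, downstream of Meg3 and Rian in the same imprinted domain, had 12, 5, 4 and 2 counts, so replicate 1 was highest for Mirg and lowest for Meg3 and Dlk1.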
